A study of Mus musculus with 33 samples.

Results

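Whole dorsal skin at mid catagen, when the hair follicles of the back regress, was compared with skin at early anagen, when they start to build a new hair. The arrays were chosen by the day in their titles, with 3 at P41 (P, postnatal day) on the mid catagen side and 2 at P23 and 2 at P25 on the early anagen side, 7 of the 33 arrays of the series. Each array held RNA from the upper-mid back of 1 wild-type C57BL/6 mouse of the natural second hair cycle, so each replicate is another animal, and with so few arrays each value is only as precise as their spread. Both P23 mice and P25 replicate 2 were labelled male and P25 replicate 1 female, and of the P41 mice replicate 1 was labelled female and replicates 2 and 3 male. The design text of the series places P41 in mid catagen by morphology, whereas the sample labels of the P41 arrays carry the words early anagen, and the day was used here. The P41 mice were older as well as in another phase, so age and phase cannot be told apart. Whole skin mixes follicles with epidermis, dermis, fat and muscle, and in such bulk RNA fewer cells of a type and less RNA per cell cannot be told apart.

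In anagen, matrix cells at the base of the follicle divide next to the dermal papilla, a cluster of mesenchymal cells that signals to them, and their progeny harden into the inner root sheath and the pigmented hair shaft. Sonic hedgehog and WNT signals drive this growth, and BMP signals accompany differentiation. In catagen the division stops, the lower follicle dies back by apoptosis, pigment production ends, the finished shaft is anchored as a club hair, and the papilla is drawn up towards the bulge, where the stem cells rest.

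The deposited signals had been scaled to 1 common level, and median signals of the 7 arrays ranged from 111 to 135. Across kept probe sets, arrays of the same phase correlated with r between 0.951 and 0.980, and arrays of different phases with r between 0.889 and 0.920. P25 replicate 1, the only early anagen female, had the lowest median signal (111) and the lowest mean r with its own phase (0.952). P25 replicate 2, labelled male, had a signal of 561 for Xist, the transcript of the inactive X chromosome, which was 60 or lower in the other early anagen males and 12345 in the P25 female, while its Y-linked Eif2s3y was at 1903. Of 26988 probe sets, 6617 passed the test between the phases. The count was 5140 without P25 replicate 2, 6832 without P25 replicate 1, 4121 without P41 replicate 2 and 4219 without P41 replicate 3. The log2 differences below are mid catagen minus early anagen with their standard errors, the value after ± in a signal is the SD across a phase, and the adjusted p comes from limma, with Benjamini-Hochberg adjustment across every probe set kept. Where an array lay under the floor of 34.6, to which low signals were raised, a difference only bounds the change.

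The regressing skin differed from the newly growing skin in both directions. Of 12867 genes tested, each by 1 probe set, 1432 were higher (11.1%) and 2141 lower (16.6%) in mid catagen at an adjusted p under 0.05. The groups did not overlap for 3556 of these genes, beside 5358 of all 12867 genes, called or not. Of the genes that passed the test, 187 rose and 171 fell more than 4-fold. Among genes above the floor on all arrays the predicted gene Gm10228 (7.32 ± 1.15) and the proton pump gene Atp12a (6.70 ± 0.35) had the largest rises. The largest fall was that of Hsd11b2 (-3.81 ± 0.50), which encodes the enzyme that inactivates glucocorticoids. Over all genes the median log2 difference was -0.06. The genes are described by 60 lists, and shares of 11.1% higher and 16.6% lower are the background for each of their counts.

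**Figure D1:**
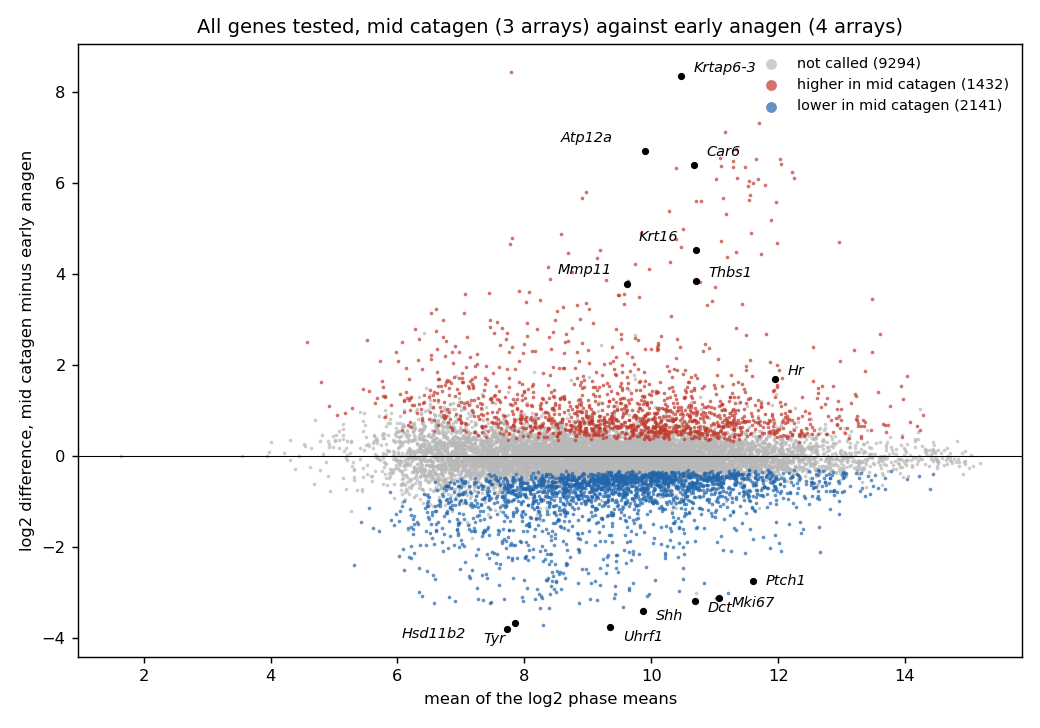
Log2 difference of each of 12867 genes (vertical axis, mid catagen minus early anagen) against the mean of its log2 phase means (horizontal axis), with genes past the test in red (higher, 1432) and blue (lower, 2141) and 14 named genes marked. Rises reach beyond 6 on the log2 scale, for Krtap6-3, Atp12a and Car6, whereas no fall passes -4.

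The machinery of cell division was lower in mid catagen nearly throughout. Of 41 mitosis genes 40 fell and 0 rose, with a median log2 difference of -2.73, and of 35 DNA replication genes 33 fell and 0 rose, with a median of -2.01. Mki67, the marker of dividing cells, had signals of 5871 and 6312 at P23, 5236 and 7232 at P25, and 1181, 547 and 520.3 at P41. The P41 arrays lay below all early anagen arrays, with replicate 1 above the other two, and the log2 difference was -3.14 ± 0.29 (adjusted p = 0.000677). The same order among the P41 mice held for the list as a whole, whose mean log2 level was -2.08 against early anagen in P41 replicate 1 and -2.88 and -2.80 in replicates 2 and 3.

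Genes of each step of division took part. Bub1, a kinase of the spindle checkpoint, fell from 1076 ± 154 to 92.2 ± 60.2 (-3.72 ± 0.37, adjusted p = 0.000829). Cdk1, the kinase that starts mitosis, fell from 2848 ± 251 to 304 ± 174 (-3.37 ± 0.33). The motor genes Kif11 (-2.87 ± 0.18), Kif20a (-3.35 ± 0.22) and Kif2c (-3.35 ± 0.36) and the condensin genes Ncapg (-3.20 ± 0.18) and Smc4 (-1.64 ± 0.10) fell as well. In DNA replication, the largest fall was that of Uhrf1 (-3.78 ± 0.43), which carries DNA methylation over to new strands, and the smallest p values belonged to the primase Prim1 (-1.94 ± 0.11), the clamp loader Rfc5 (-1.74 ± 0.12), the helicase subunit Mcm7 (-1.79 ± 0.12) and the nucleotide reductase Rrm1 (-2.46 ± 0.19). The exceptions were Mybl2 among mitosis genes and Fen1 and Orc1 among replication genes, which did not pass the test on the probe set used, although 1 of the 2 probe sets of each was called lower. By symbol, the Mcm genes had the lowest median of all families with at least 10 genes tested (-1.95, 8 of 10 lower), followed by the nuclear pore genes Nup (-0.86, 12 of 18 lower), the Utp genes of ribosome assembly (-0.62, 6 of 11 lower), the Snhg small nucleolar RNA hosts (-0.55, 9 of 14 lower) and the centrosome genes Cep (-0.53, 16 of 34 lower).

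The promoters of the division genes are shown because the members moved together. Letters were searched on both strands in RefSeq windows of GRCm38.p6 from 250 bases before to 50 after the start of 8250 tested genes with a single window. The element TTTGAA, the cell cycle homology region of late cell cycle genes, was in 26 of 33 mitosis windows (78.8%), in 2 of 25 replication windows (8%) and in 12.1% of all windows. CCAAT was in 78.8% of the mitosis windows, 13 of 13 cholesterol synthesis windows (100%), 5 of 7 hair shaft keratin windows (71.4%) and 38.8% of all windows. The E2F letters TTTCGCGC or TTTGGCGC, typical of S phase genes, were in 7 of 25 replication windows (28%), 2 of 33 mitosis windows (6.06%) and 1.6% of all windows. TTTGAA was also in 6 of 7 windows of hair shaft keratin genes, whose levels went the other way. Such a match is a description of the letters and not evidence of binding. The 250 bases before the start of Ncapg and Kif11, both lower in mid catagen, are given 5′ to 3′ on the strand of the gene with TTTGAA and CCAAT (or the reverse strand, TTCAAA and ATTGG) in capitals, and those of Pola1 (-2.41 ± 0.28) and Mcm5 (-2.97 ± 0.35) with the E2F letters of either strand, which overlap in Mcm5. They lie at chr5:45669675-45669924 (plus strand), chr19:37376132-37376381 (plus strand), chrX:93632156-93632405 (minus strand) and chr8:75109259-75109508 (plus strand).
Ncapg: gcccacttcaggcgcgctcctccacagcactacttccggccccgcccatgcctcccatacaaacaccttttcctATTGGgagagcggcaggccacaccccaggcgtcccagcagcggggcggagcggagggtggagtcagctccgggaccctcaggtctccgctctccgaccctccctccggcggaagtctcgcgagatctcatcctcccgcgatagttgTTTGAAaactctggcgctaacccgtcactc
Kif11: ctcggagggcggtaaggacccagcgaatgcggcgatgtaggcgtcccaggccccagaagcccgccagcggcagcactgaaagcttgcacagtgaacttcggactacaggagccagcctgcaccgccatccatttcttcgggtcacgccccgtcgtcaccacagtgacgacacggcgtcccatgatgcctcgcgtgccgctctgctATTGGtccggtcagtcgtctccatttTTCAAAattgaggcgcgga
Pola1: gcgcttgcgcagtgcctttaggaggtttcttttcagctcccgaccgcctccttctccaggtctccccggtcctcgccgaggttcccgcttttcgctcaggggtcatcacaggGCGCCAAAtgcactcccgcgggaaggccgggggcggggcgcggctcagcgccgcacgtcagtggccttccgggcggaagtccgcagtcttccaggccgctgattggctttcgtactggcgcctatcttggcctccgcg
Mcm5: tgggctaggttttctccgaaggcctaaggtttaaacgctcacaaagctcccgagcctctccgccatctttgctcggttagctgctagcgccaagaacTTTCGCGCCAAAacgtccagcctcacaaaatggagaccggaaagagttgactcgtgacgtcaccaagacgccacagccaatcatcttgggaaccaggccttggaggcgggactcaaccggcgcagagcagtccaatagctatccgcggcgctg

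Around the cell cycle core, regulators of its entry split. Of 23 G1 cyclin and inhibitor genes 8 fell (5 without P23 replicate 1 or P41 replicate 2) and 6 rose (3 without P23 replicate 1 or P41 replicate 2 or 3). The cyclin-dependent kinases Cdk2 (-1.60 ± 0.19) and Cdk4 (-1.24 ± 0.12) and the pocket protein Rbl1 (-1.57 ± 0.13) fell. The inhibitors Cdkn1c, Cdkn2c and Cdkn2d and the cyclins Ccnd1 and Ccnd2 were also among those that fell. The genes that rose were the inhibitors Cdkn1a (0.99 ± 0.18) and Cdkn2b (1.13 ± 0.13), the antiproliferative Btg1 (0.65 ± 0.15) and Btg2 (1.37 ± 0.39), the stress gene Gadd45b (0.62 ± 0.15) and Trp53inp1 (1.70 ± 0.28), a p53 target. Ribosome assembly fell with division. Of 30 ribosome biogenesis genes 25 fell and 0 rose, with a median of -0.74, among them Dkc1 (-1.80 ± 0.15) and Fbl (-1.26 ± 0.13), which modify ribosomal RNA, the assembly factor Nolc1 (-1.27 ± 0.12) and the polymerase I subunit Polr1b (-1.05 ± 0.11). Of 48 genes of cytosolic ribosomal proteins 7 fell, a share (14.6%) close to that of all genes, with a median of -0.13, and the count was 4 without P41 replicate 3. Mycn, a transcription factor of growing cells named here after its values were seen, had signals of 1494 and 1768 at P23, 1290.1 and 2288 at P25, and 246, 170.5 and 149 at P41, a fall without overlap (-3.18 ± 0.25, adjusted p = 0.000363). Cdkn1c lost the call when any 1 array other than P25 replicate 1 and P41 replicate 3 was left out. Ccnd2 lost the call when any 1 array other than P25 replicate 1 and P41 replicate 1 was left out. Btg2 lost the call when any 1 array other than P23 replicate 2 and P25 replicate 1 was left out. Btg1 lost the call without P23 replicate 1 or 2 or P41 replicate 2 or 3. Gadd45b lost the call without P23 replicate 1 or P41 replicate 2 or 3. Cdkn2d lost the call without P23 replicate 1 or P41 replicate 2.

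The hedgehog pathway fell from ligand to targets. Of its 16 genes 11 were lower and 1 higher, with a median of -0.71. Shh, the ligand that matrix cells make, had signals of 2759.8 and 3435 at P23, 1870.2 and 4406 at P25, and 277, 229.9 and 333 at P41. The groups lay far apart, and the log2 difference was -3.42 ± 0.29 (adjusted p = 0.000507). Its targets fell with it. The receptor Ptch1, which is itself induced by the signal, fell from 8105 ± 1191 to 1202 ± 118 (-2.75 ± 0.15, adjusted p = 0.000189), the transcription factor Gli1 from 1073 ± 383 to 135 ± 11.3 (-2.92 ± 0.29), and Hhip, a feedback inhibitor, from 459 ± 113 to 51.5 ± 12.2 (-3.16 ± 0.24). Gas1, a coreceptor, was the exception and rose (0.82 ± 0.10, adjusted p = 0.00194).

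WNT genes and genes of the dermal papilla were lower in part. Of 37 WNT genes 12 fell and 2 rose. The number that fell was 7 without P25 replicate 2, and the number that rose was 1 when any 1 array other than P25 replicate 1 and P41 replicate 1 was left out, and 4 without P41 replicate 1. Lef1, the transcription factor that carries the WNT signal in matrix and precortex, had signals of 559.7 and 900.2 at P23, 603 and 997 at P25, and 127, 129 and 199.9 at P41, with no overlap (-2.32 ± 0.27, adjusted p = 0.00141). The R-spondin Rspo3, which strengthens WNT signals (-2.15 ± 0.26), the ligand Wnt5a (-1.40 ± 0.21) and the inhibitors Wif1 (-2.07 ± 0.37, adjusted p = 0.00739) and Sostdc1 (-1.16 ± 0.20) fell, while the receptors Fzd6 (0.94 ± 0.18) and Fzd8 (0.48 ± 0.13) rose. Of 21 genes used to mark the papilla 9 fell and 3 rose. Scube3 (-2.70 ± 0.30) and Lepr (-2.47 ± 0.14) fell most, and Prdm1 (1.52 ± 0.14), Sdc1 (1.15 ± 0.12) and Bmp4 (0.60 ± 0.13) rose, of which Prdm1 and Sdc1 are also made by epithelial cells. The FGF ligand Fgf7, a papilla product, had signals of 356 ± 83.2 and 400.3 ± 60.4 in early anagen and mid catagen, a difference that did not pass the test (0.18 ± 0.20, adjusted p = 0.534). Fzd8 lost the call when any 1 array other than P25 replicate 1 and P41 replicate 1 was left out. Bmp4 lost the call without P41 replicate 2 or 3.

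Structural genes of the hair included 8 keratin-associated genes among the 12 largest rises. Of 37 genes of keratin-associated proteins, the cysteine-rich matrix of the shaft, 36 were higher in mid catagen and 0 lower, with a median log2 difference of 5.67, the highest of all symbol families. Of 12 hair shaft keratins 11 rose (median 4.51, and 7 without P41 replicate 3), and of 16 inner root sheath genes 12 rose (median 2.40). Many of these paralogs are nearly identical in sequence, and probe sets may not tell them apart, so their counts are not counts of independent genes.

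The early anagen mice also differed among themselves in these genes. Krtap6-3 had signals of 5.5 and 2.8 at P23, 74.7 and 268 at P25, and 22731, 21483 and 24374 at P41. Both P23 arrays were under the floor and both P25 arrays above it, so that the log2 difference of 8.35 is a lower bound (adjusted p = 0.000453). Krtap5-1, which had no array under the floor, had signals of 71.9 and 68.2 at P23, 131 and 265 at P25, and 2455, 1749 and 2984 at P41 (4.36 ± 0.48, adjusted p = 0.00123). Tchhl1, a trichohyalin-like gene of the sheath, had signals of 39.8 and 132 at P23, 469 and 1079.6 at P25, and 16098, 14608 and 16454 at P41, again in the order P23, P25, P41 (6.11 ± 1.02, adjusted p = 0.00588). With the males alone 28 keratin-associated, 7 shaft keratin and 6 inner root sheath genes rose, and with P25 alone as early anagen 7 inner root sheath genes did.

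Not all hair genes were higher. Krt35, a keratin of the lowest part of the shaft, had signals of 1643 and 3514 at P23, 1499 and 4134 at P25, and 3054, 1350.1 and 2304 at P41, and the groups overlapped (-0.21 ± 0.45, adjusted p = 0.772). Among sheath genes, Gata3, Krt28, Krt73 and Krt25 did not pass the test, with differences of 0.02, 0.03, 0.60 and 1.02, whereas Krt71 did (1.53 ± 0.39, adjusted p = 0.0274). Padi1 (4.52 ± 0.35) and Padi4 (2.51 ± 0.38), enzymes that convert arginine to citrulline in sheath proteins, and Crym (3.40 ± 0.52) rose. TATAAA, the TATA box, was in 28 of 35 windows of keratin-associated genes (80%), in 9 of 14 inner root sheath windows (64.3%) and in 8.39% of all windows, against 1 of 33 mitosis windows (3.03%). The 250 bases before the start of Krtap6-3 and Krtap31-1 (log2 difference of at least 5.67), at chr16:89083774-89084023 (plus strand) and chr11:99907670-99907919 (plus strand) of GRCm38.p6, show it in capitals close to the start. Krt71 lost the call without P23 replicate 1 or P41 replicate 1, 2 or 3.
Krtap6-3: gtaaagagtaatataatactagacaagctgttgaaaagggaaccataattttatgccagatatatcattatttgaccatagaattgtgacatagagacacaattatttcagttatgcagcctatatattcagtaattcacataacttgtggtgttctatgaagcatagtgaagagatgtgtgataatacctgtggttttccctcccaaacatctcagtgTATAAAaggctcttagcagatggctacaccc
Krtap31-1: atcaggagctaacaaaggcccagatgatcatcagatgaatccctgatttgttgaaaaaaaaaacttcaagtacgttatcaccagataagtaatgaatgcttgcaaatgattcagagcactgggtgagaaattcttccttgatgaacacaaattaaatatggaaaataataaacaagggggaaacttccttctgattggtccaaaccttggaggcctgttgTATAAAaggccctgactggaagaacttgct

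Keratins of the companion layer, which joins sheath and outer root sheath, and of stressed epithelium were higher too, 4 of 6 genes. Krt75 of the companion layer rose from 2115 ± 988 to 7759 ± 883 (2.00 ± 0.36, adjusted p = 0.008) and Krt6a from 4184 ± 390.2 to 21086 ± 3131 (2.33 ± 0.14). Krt16, a partner of Krt6a that is also induced in activated epidermis, had signals of 595 and 312 at P23, 191 and 293 at P25, and 4240.3, 9289.9 and 10251 at P41. All P41 arrays were above all early anagen arrays, with replicate 1 the lowest (4.53 ± 0.44, adjusted p = 0.000755).

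**Figure D2:**
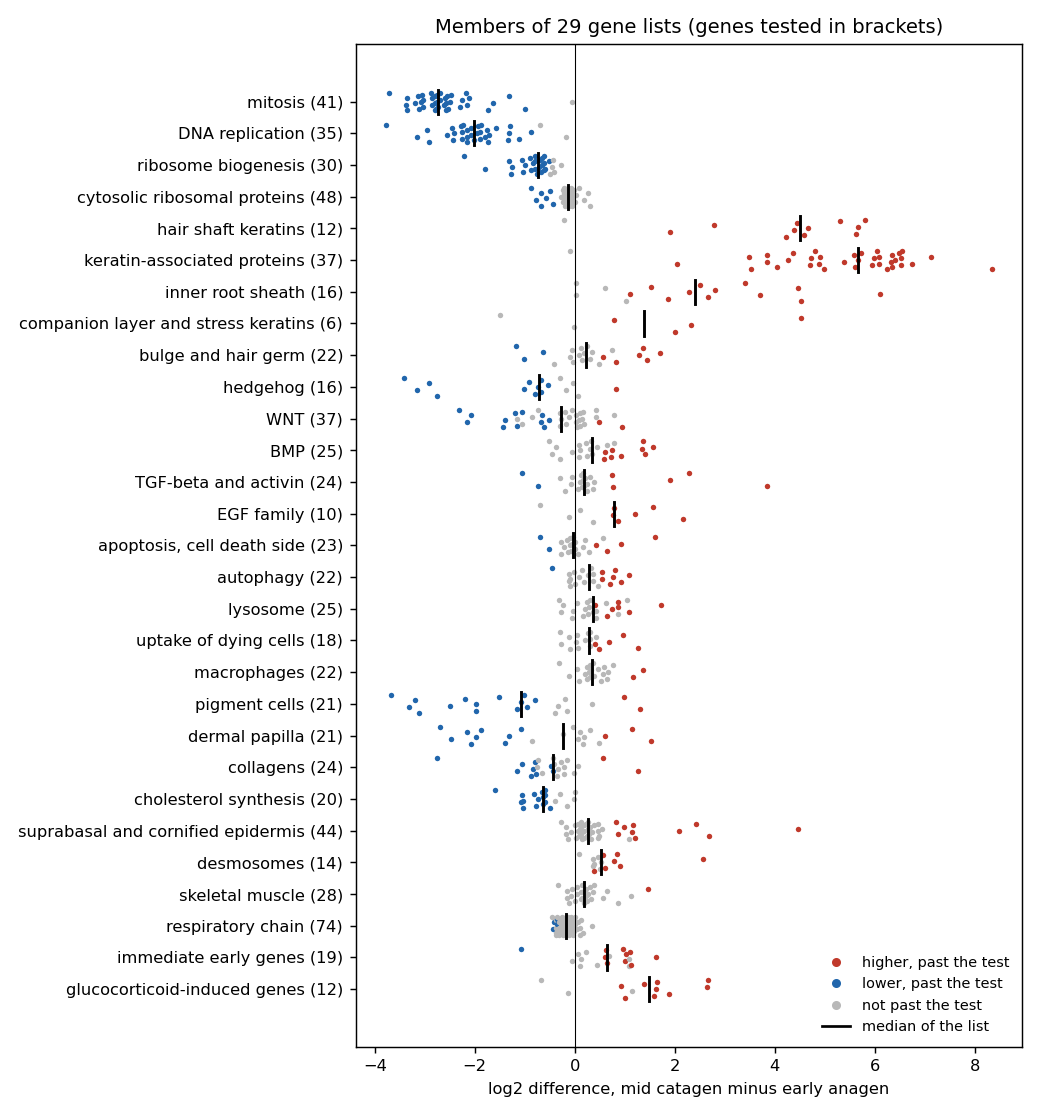
Log2 difference (mid catagen minus early anagen) of each gene tested in 29 of the lists, in red where it was higher and in blue where it was lower past the test, grey otherwise, with a black bar at the median of the list. Mitosis and DNA replication lie to the left of 0 nearly throughout, hair structure to the right, and pigment cell, WNT and papilla genes spread from strong falls to modest rises.

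Pigment production was lower. Of 21 genes of pigment cells 14 fell and 2 rose (1 without P41 replicate 3), with a median of -1.08. Tyr, the enzyme that makes the first step to melanin, had signals of 686 and 1033 at P23, 471 and 1138 at P25, and 90.3, 58.1 and 43.7 at P41, a fall without overlap (-3.68 ± 0.37, adjusted p = 0.000817). Dct fell from 5060.3 ± 1638 to 538 ± 93.3 (-3.19 ± 0.27) and the melanosome matrix gene Pmel from 2423 ± 1031 to 231 ± 73.6 (-3.32 ± 0.39). Mc1r, the receptor that switches melanin type, fell from 162 ± 32.8 to values around the floor (a log2 difference of -2.20 or lower), as did Pax3 (-1.15 or lower). Mitf, the master transcription factor of the lineage (0.99 ± 0.21), and Mreg (1.30 ± 0.11), a melanoregulin of pigment transfer, went up instead. The summed signal of 5 pigment cell markers was between 6892 and 15415 in early anagen and between 927 and 1476 in mid catagen. Mitf lost the call without P41 replicate 3.

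Growth factor families other than hedgehog and WNT rose more often than they fell in the BMP and EGF lists. Of 25 BMP genes 9 rose and 0 fell (1 without P25 replicate 1 or 2), including the ligands Bmp2 (from 511 ± 109 to 1319 ± 269, 1.37 ± 0.22, adjusted p = 0.00462), Bmp7 (0.74 ± 0.13) and Bmp8a (1.57 ± 0.26) and the inhibitory Smad6 (0.93 ± 0.15). Of 10 EGF family genes 6 rose (3 without P41 replicate 2), among them the ligands Tgfa (2.16 ± 0.17), Ereg (1.21 ± 0.13) and Btc (0.79 ± 0.19) and the feedback inhibitor Errfi1 (1.57 ± 0.19). In the TGF-beta and activin list 5 of 24 rose and 2 fell (1 without P23 replicate 1 or 2). Thbs1, thrombospondin 1, which can activate latent TGF-beta, had signals of 541 and 355 at P23, 444 and 428 at P25, and 6342, 6148 and 6266 at P41, with no overlap and little spread at P41 (3.84 ± 0.15, adjusted p = 9.03e-05). Ccn2, a TGF-beta target (2.29 ± 0.13), the activin subunit Inhbb (1.91 ± 0.12) and the inhibitor Smad7 (0.76 ± 0.14) rose, while the ligand Tgfb3 (-1.06 ± 0.23) and its binding protein Ltbp1 (-0.74 ± 0.17) fell. Tgfb1 and Tgfb2, ligands that can bring on catagen, had signals of 906 ± 182 and 513 ± 86 in early anagen and 996 ± 253 and 588 ± 186 in mid catagen, and neither passed the test (adjusted p = 0.731 and 0.672). Btc lost the call when any 1 array other than P25 replicate 1 and P41 replicate 1 was left out. Ltbp1 lost the call without P23 replicate 1 or 2.

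Among FGF genes 3 of 18 rose and 1 fell (2 without P23 replicate 1 or P25 replicate 1 or 2). Fgf22 had signals of 175 and 161 at P23, 171 and 220.5 at P25, and 940.0, 787 and 858 at P41, with no overlap (2.25 ± 0.14, adjusted p = 0.000217). Fgf18, which keeps bulge cells at rest, was above all early anagen arrays in mid catagen, with 1 early anagen array under the floor, so that its difference of 1.70 is a lower bound (adjusted p = 0.0428, and up to 0.173 over the alternatives run). Fgf5, the ligand known for ending anagen, was low in both phases here, with signals of 44.4 and 29.1 at P23, 47.4 and 55.7 at P25, and 99.1, 55.3 and 74 at P41 (adjusted p = 0.0629), and had its highest day means at P37 (689.8) and P39 (827). Igfbp3, which binds insulin-like growth factors, rose (1.29 ± 0.22), while the ligands Igf1 (-1.23 ± 0.36) and Igf2 (-1.01 ± 0.19) and Igfbp2 (-0.77 ± 0.16) fell. Of the retinoid genes, Aldh1a2, which makes retinoic acid, rose (2.46 ± 0.22), as did Crabp2 (1.55 ± 0.18) and Dhrs3 (0.83 ± 0.16), and the carriers Rbp4 (-1.09 ± 0.19) and Crabp1 (-1.08 ± 0.24) fell. Hr, hairless, the corepressor without which follicles fall apart at catagen, rose from 2219 ± 399 to 7056 ± 855 (1.68 ± 0.17, adjusted p = 0.000793), whereas its partner Vdr had 2475 ± 339 and 2701 ± 128 (adjusted p = 0.502). Fgf18 lost the call when any 1 array other than P25 replicate 1 was left out. Igf1 lost the call when any 1 array other than P23 replicate 2 and P25 replicate 1 was left out. Igfbp2 lost the call without P41 replicate 3. Crabp1 lost the call without P41 replicate 2.

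Of the stem cell and germ list 6 of 22 genes rose and 3 fell, and the number that rose was 3 when any 1 array other than P25 replicate 1 and P41 replicate 3 was left out. Sox9 (1.44 ± 0.18), Foxc1 (1.29 ± 0.15) and Col17a1 (0.56 ± 0.15), which hold bulge cells in their state, rose. Lgr6 (-1.17 ± 0.22), Npnt (-1.01 ± 0.23) and Lhx2 (-0.63 ± 0.14) fell. The markers Krt15 (20016 ± 1959 and 24866 ± 3538) and Cd34 (5625 ± 1269 and 5411 ± 723) did not pass the test. Lgr5, a marker of cycling follicle stem cells, had signals of 1021 and 1187 at P23, 927 and 1404 at P25, and 2348, 2146 and 1296 at P41, with overlap at P41 replicate 3 (adjusted p = 0.0632). Among the transcription factors that the study itself had listed for hair, 7 of 19 rose and 4 fell, which is no independent evidence, since the study chose them on these samples. Lef1, Sox18 (-2.11 ± 0.21), Msx1 (-1.64 ± 0.41) and Gli2 (-0.68 ± 0.15) fell, and Runx1 (0.85 ± 0.12) was among those that rose. Col17a1 and Msx1 lost the call when any 1 array other than P25 replicate 1 was left out. Npnt lost the call without P23 replicate 2 or P41 replicate 1 or 2. Lhx2 lost the call without P41 replicate 3.

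The apoptosis lists were near the background. Of 23 genes on the death side of apoptosis 4 rose (17.4%) and 2 fell. The number that rose was 2 without P23 replicate 1 or P41 replicate 2, and the number that fell was 1 when any 1 array other than P25 replicate 1 was left out. Casp1, an inflammatory caspase, rose from 359.7 ± 28.9 to 1096 ± 43.7 (1.61 ± 0.11, adjusted p = 0.000264), and the killer proteins of the Bcl2 family Bcl2l11 (0.92 ± 0.13) and Bmf (0.65 ± 0.16) rose by less, while Aifm1 (-0.69 ± 0.11) and Casp2 (-0.51 ± 0.14) fell. On the survival side Bcl2 fell (-0.62 ± 0.12, adjusted p = 0.0105), and Bcl2l1 (0.99 ± 0.18) and Mcl1 (0.49 ± 0.10) rose. Of 22 autophagy genes 7 rose (31.8%) and 1, Atg5, fell. The number that rose was 4 without P41 replicate 3, and 1 with P25 alone as early anagen. Called higher were the membrane tags Gabarapl1 (1.08 ± 0.18), Map1lc3b (0.80 ± 0.14), Gabarapl2 (0.76 ± 0.11) and Map1lc3a (0.71 ± 0.11). Of 25 lysosome genes 7 rose (28%, and 11 without P25 replicate 1) and 0 fell (1 without P41 replicate 1), with the cathepsins Ctsf (1.73 ± 0.19), Ctsl (1.08 ± 0.12), Ctsd (0.87 ± 0.13) and the protective protein Ctsa (0.87 ± 0.15). Of 18 genes for the uptake of dying cells 5 rose (27.8%) and 0 fell, among them the bridging protein Mfge8 (0.97 ± 0.11), the cholesterol exporter Abca1 (1.26 ± 0.18), Lgals3 (0.68 ± 0.11) and the receptor Tyro3 (0.49 ± 0.10). Casp2 lost the call when any 1 array other than P25 replicate 1 was left out. Bmf lost the call without P23 replicate 1 or P41 replicate 2 or 3. Atg5 lost the call without P23 replicate 2 or P41 replicate 2 or 3.

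Matrix proteases gave 1 outstanding member. Mmp11, stromelysin 3, which is made by stromal cells around remodelling epithelium, had signals of 157 and 254 at P23, 143 and 292 at P25, and 1742, 3701 and 3354 at P41, with P41 replicate 1 the lowest of the 3 and all above early anagen (3.79 ± 0.35, adjusted p = 0.000671). Timp2 and Timp3 (0.47 ± 0.11) rose, and Mmp16 (-1.32 ± 0.21), Adamts3 and Adamts4 (-1.67 ± 0.35) fell, for 3 higher (1 without P23 replicate 1 or 2 or P41 replicate 2 or 3) and 3 lower of 20. Timp2 lost the call when any 1 array other than P25 replicate 1 and P41 replicate 1 was left out. Timp3 lost the call when any 1 array other than P25 replicate 1 and 2 was left out. Adamts3 lost the call when any 1 array other than P23 replicate 1 and P41 replicate 1 was left out.

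Of 22 macrophage genes 2 rose, the scavenger receptor Cd163 (1.37 ± 0.30, adjusted p = 0.017) and the complement gene C1qa (1.17 ± 0.27, adjusted p = 0.0193), although the count was 10 without P25 replicate 1 and 1 without P41 replicate 2 or 3. Of 21 interferon genes 0 passed by limma, with 0 at an unadjusted p under 0.05. Of 13 T and NK cell genes 1 fell (2 without P41 replicate 1), Thy1 (-1.75 ± 0.33), which fibroblasts make as well. Of 8 mast cell genes 3 fell (1 without P41 replicate 1 or 3), Kit (-0.96 ± 0.21), Mcpt4 (-0.92 ± 0.22) and Cpa3 (-0.82 ± 0.19), of which Kit is also a gene of pigment cells. The summed signal of 4 mast cell markers did not overlap between the phases, from 5181 to 7723 in early anagen and from 2985 to 4474 in mid catagen. In the antimicrobial list 5 of 15 rose (3 without P41 replicate 3), Lcn2, Defb1 (1.54 ± 0.22), Il1rn (1.44 ± 0.09), Saa3 (0.95 ± 0.18) and Nfkbia (0.49 ± 0.11), and 1 fell, the chemokine Cxcl1 (-0.55 ± 0.14). Cxcl1 lost the call without P23 replicate 1, P25 replicate 2 or P41 replicate 2 or 3. Mcpt4 lost the call without P23 replicate 1 or P41 replicate 1 or 3. Cd163 and Nfkbia lost the call without P41 replicate 2 or 3. Cpa3 lost the call without P41 replicate 1 or 3. Lcn2 lost the call without P41 replicate 3.

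Matrix genes of the dermis were lower in part. The mean log2 level of collagens against early anagen was -0.97 at P29, -1.09 at P39 and -0.49 at P41, so P41 lay above those days. Of 24 collagens 9 fell and 2 rose (0 without P41 replicate 2, and 1 when any 1 array other than P25 replicate 1 and P41 replicate 2 was left out), with a median of -0.43. Col11a1, a minor fibrillar collagen, fell most (-2.75 ± 0.28), and Col5a1 (-1.06 ± 0.14), Col6a2 (-0.88 ± 0.12) and Col6a3 (-0.84 ± 0.12) fell, but the most abundant chain, Col1a1, had 35136 ± 3775 and 27311 ± 8076 and did not pass (adjusted p = 0.229). The collagens that rose were Col17a1, a product of basal keratinocytes, and Col8a2 (1.27 ± 0.26). The elastic fibre genes Fbn2 (-2.27 ± 0.21) and Mfap4 (-1.92 ± 0.36) and the fibroblast regulators Twist2 (-1.19 ± 0.21) and Dlk1 (-0.98 ± 0.26) fell, and Vim, vimentin, fell slightly (-0.52 ± 0.12, adjusted p = 0.0181). Of the elastic fibre list 5 genes fell in all (3 without P23 replicate 1, P25 replicate 2 or P41 replicate 3), and of the fibroblast list 5 (2 without P41 replicate 2 or 3, and 3 without P23 replicate 1 or 2). The summed signal of 4 fibroblast markers overlapped between the phases, from 79546 to 99668 in early anagen and from 59253 to 84191 in mid catagen. Dlk1 lost the call when any 1 array other than P25 replicate 2 and P41 replicate 1 was left out. Vim lost the call without P41 replicate 2 or 3. Col8a2 lost the call without P41 replicate 2.

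Lipid genes split by pathway. Of 20 genes of cholesterol synthesis 15 fell and 0 rose, with a median of -0.64. The count was 9 without P41 replicate 2 or 3, and 4 with P25 alone as early anagen. Idi1 had signals of 3166 and 3566 at P23, 2744 and 3239.9 at P25, and 1096, 1053 and 1009 at P41 (-1.59 ± 0.12, adjusted p = 0.000343), and Sqle (-1.07 ± 0.11), Fdps (-1.03 ± 0.17) and Hmgcs1 (-0.78 ± 0.10), which make squalene and its precursors, fell without overlap. The sterol element TCACNCCAC was in 1 of 13 cholesterol windows and in 1.04% of all windows, and that of Hmgcs1, at chr13:119690101-119690350 (plus strand) of GRCm38.p6, holds it on the strand of the gene.
Hmgcs1: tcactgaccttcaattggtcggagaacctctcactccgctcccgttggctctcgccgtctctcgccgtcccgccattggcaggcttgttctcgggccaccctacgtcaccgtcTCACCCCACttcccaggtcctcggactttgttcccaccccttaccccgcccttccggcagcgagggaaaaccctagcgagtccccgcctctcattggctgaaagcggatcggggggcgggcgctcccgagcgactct

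Adipocyte genes did not share a direction, with 4 of 21 lower and 1 higher (0 when any 1 array other than P23 replicate 1 and P41 replicate 1 was left out, and 2 without P23 replicate 1). Agpat2 (-1.58 ± 0.27), Retn (-1.49 ± 0.22), Acly (-0.89 ± 0.18) and Dgat2 (-0.55 ± 0.14) fell and the lipid droplet gene Cidec rose (0.87 ± 0.24), while the adipocyte hormone gene Adipoq had 11307 ± 2497 and 11408 ± 232 (adjusted p = 0.899). The summed adipocyte markers overlapped, from 30193 to 45242 and from 40503 to 43269. In muscle 1 of 28 genes was higher (2 without P23 replicate 1, P25 replicate 1 or 2 or P41 replicate 2), the oxygen store Mb (1.47 ± 0.18, adjusted p = 0.00189), and summed markers from 109678 to 143088 and from 125204 to 133127. Cidec lost the call when any 1 array other than P23 replicate 1 and P41 replicate 1 was left out. Dgat2 lost the call without P23 replicate 1 or P41 replicate 1, 2 or 3.

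The main products of the suprabasal epidermis did not pass the test. Krt10 had 30403 ± 991 and 32833 ± 1104, Krt1 12339 ± 836 and 11022 ± 1732 and Lor, loricrin, 22231 ± 1163 and 23259 ± 1769.8 (adjusted p = 0.429, 0.397 and 0.698). Of 44 suprabasal and cornified genes 10 rose and 0 fell (1 without P25 replicate 1). The cornified envelope gene Sprr2h had signals of 79.9 and 127 at P23, 65.6 and 79.8 at P25, and 2387, 1349 and 2080.5 at P41 (4.46 ± 0.28, adjusted p = 0.000207), and Sprr1a (2.68 ± 0.28), the corneodesmosome gene Cdsn (2.09 ± 0.14) and the protease inhibitor Spink5 (0.98 ± 0.13) rose too, of which Cdsn is also a gene of the inner root sheath. Of 14 desmosome genes 7 rose (4 without P23 replicate 1 or P41 replicate 2 or 3) and 0 fell, with Dsc2 the steepest (2.57 ± 0.23). The basal keratins Krt5 and Krt14 summed to between 33522 and 38859 in early anagen and to between 45226 and 49072 in mid catagen. Krt14 rose (0.57 ± 0.11, adjusted p = 0.00807, all 3 probe sets higher), while Krt5 differed by 0.23 ± 0.10 and did not pass the test (adjusted p = 0.146).

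Genes that glucocorticoids induce were higher. Of 12, 9 rose and 0 fell (1 without P41 replicate 3), with a median of 1.48, among them Zbtb16 (2.67 ± 0.44), Tsc22d3 (1.88 ± 0.29), Angptl4 (1.59 ± 0.21) and Sgk1 (1.38 ± 0.12). Zbtb16 had signals of 339.9 and 358 at P23, 159 and 268 at P25, and 938, 1745 and 3067 at P41, and the mean of the list was highest in P41 replicate 3 (1.97 above early anagen on the log2 scale) and lowest in replicate 1 (0.81). Of 19 immediate early genes 9 rose and 1 fell. The number that rose was 4 without P41 replicate 3, and 3 with P25 alone as early anagen. Ier3 (1.63 ± 0.19) and Zfp36 (1.11 ± 0.10) were higher and Egr3 (-1.07 ± 0.25) lower. Of 11 clock genes driven through E-boxes or D-boxes 1 rose, Per1 (1.64 ± 0.29), which glucocorticoids induce as well, and 0 fell. Without P41 replicate 1 there were 2 in each direction. Dbp, a clock output with a steep daily rhythm, had signals of 1134 and 685 at P23, 1436 and 1073 at P25, and 1734, 195 and 232 at P41 (adjusted p = 0.247). P41 replicate 1 was above all early anagen arrays and replicates 2 and 3 below them, and the part of this difference among the P41 mice in other values was not tested. Arntl, which runs opposite to Dbp over the day, was above all early anagen arrays on all P41 arrays (0.66 ± 0.18, adjusted p = 0.0343, and up to 0.157 over the alternatives run). Mitochondrial chaperones Hspd1 (-0.93 ± 0.11), Hspe1 (-0.87 ± 0.13) and Hspa9 (-0.69 ± 0.12) fell, while the inducible Hspa1a (1.28 ± 0.24) and Hspa1b (0.87 ± 0.11) rose. Of 74 respiratory chain genes 4 were lower, with a median of -0.17, and the count was 0 without P41 replicate 2 or 3, and 1 without P23 replicate 1 or 2 or P25 replicate 2, and 2 without P25 replicate 1 or P41 replicate 1. Arntl lost the call when any 1 array other than P25 replicate 1 and P41 replicate 1 was left out. Egr3 lost the call without P23 replicate 2 or P41 replicate 1 or 3.

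The remaining lists had few calls. Of 16 Notch genes 1 rose and 2 fell, of 22 endothelial genes 1 fell, of 11 Schwann cell genes 1 rose and 2 fell, and of 11 pericyte and smooth muscle genes 2 rose and 2 fell. Of 14 sebaceous gland genes 2 fell, of 16 collagen processing genes 3 fell, of 12 glycolysis genes 2 rose and 1 fell, and of 31 proteasome genes 1 rose and 2 fell. Of 11 complement genes 2 rose, of 11 hormone and nuclear receptor genes 1 rose, of 8 MHC class II and Langerhans cell genes 1 rose, and of 6 neurotrophin genes 1 rose and 1 fell, while 0 of 4 metallothioneins passed the limma test, with 1 at an unadjusted p under 0.05. These counts moved between 0 and 4 when 1 array was left out, except for complement, which had 7 genes higher without P25 replicate 1.

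Some of the steepest rises belonged to genes outside the lists. Atp12a had signals of 117 and 98.7 at P23, 118 and 48.7 at P25, and 6783, 11191 and 11001 at P41 (6.70 ± 0.35, adjusted p = 0.000189). Car6, a secreted carbonic anhydrase, had signals of 111 and 112 at P23, 227 and 289 at P25, and 12135, 15457 and 15564 at P41 (6.40 ± 0.37, adjusted p = 0.000194). By symbol, 47 of 239 solute carrier genes (Slc) were higher and 24 lower, and 19 of 70 Atp genes were higher and 7 lower. Single transport genes that rose, picked after their values were seen, were the proton channel Otop2 (4.16 ± 0.23), the anion exchanger Slc4a1 (at least 3.57), the carboxylate transporter Slc5a8 (2.73 ± 0.17), the iodide transporter Slc5a5 (2.94 ± 0.20), the magnesium channel Trpm6 (3.39 ± 0.23), the calcium pump Atp2c2 (3.36 ± 0.18) and the sodium pump regulator Fxyd4 (3.17 ± 0.30). Slc4a1 is best known from red blood cells, but the other red cell genes tested, Alas2 and Hbb-b2, did not rise, with differences of -0.68 and -0.70 that did not pass the test. In the other direction, Atp6v1b1, a subunit of the vacuolar proton pump of specialised acid-secreting cells, fell from 366 ± 73.4 to values near the floor (-3.24 or lower). Further large rises were those of Chac1 (from 251 ± 135 to 4003 ± 768, 4.12 ± 0.37), which degrades glutathione, and Gpx2 (3.22 ± 0.18), which uses it.

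**Figure D3:**
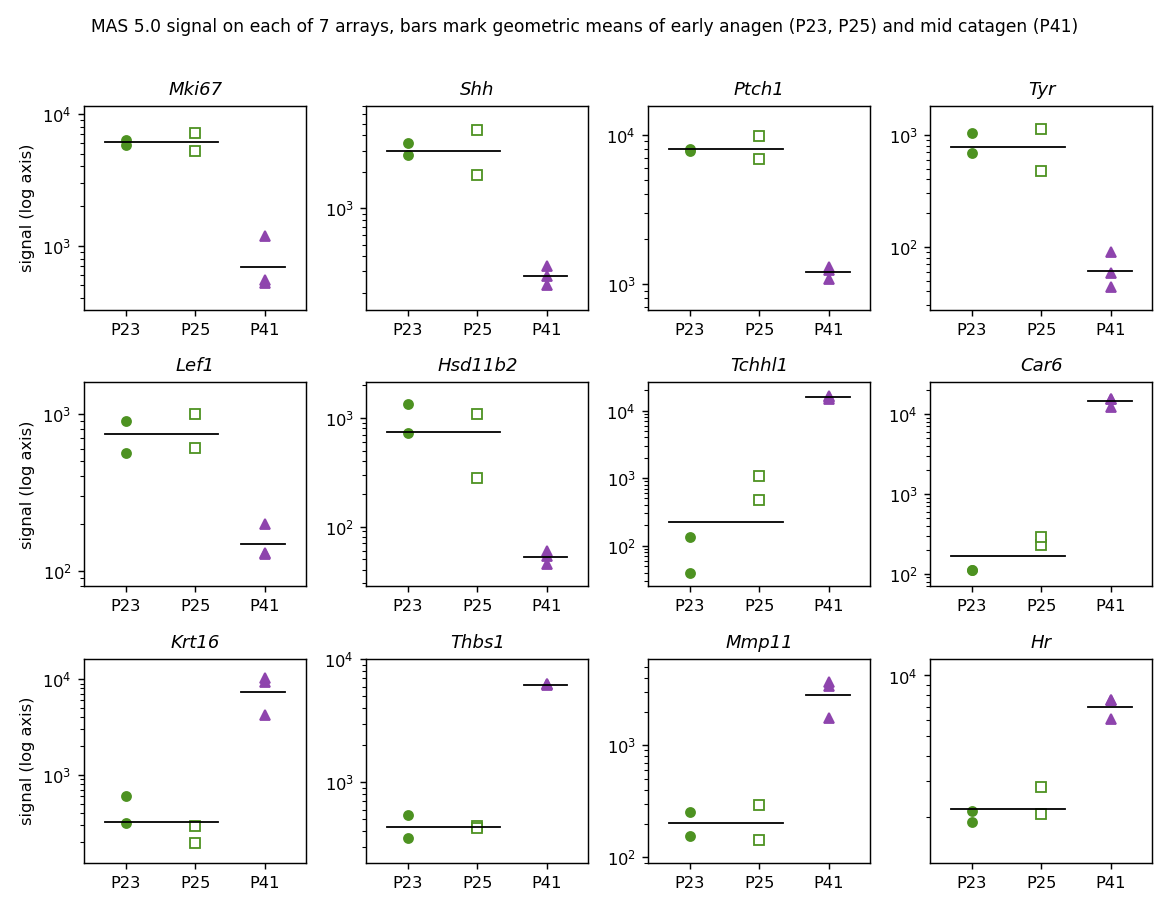
Signal (log axis) of 12 genes on each of the 7 arrays, with filled circles for P23, open squares for P25 and triangles for P41, and bars at the geometric mean of each phase. No gene shown has overlapping phases, the 3 P41 values of Thbs1 nearly coincide, and P23 lies below P25 for Tchhl1 and Car6.

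The levels at the other days place these differences in the cycle, as a description, since the early anagen and P41 arrays enter it again. Of the 2141 genes lower in mid catagen, 1728 (80.7%) were on the mid catagen side of the midpoint at P44, telogen, against 717 of the 1432 higher genes (50.1%). The lists reached their low point by different routes. Hedgehog genes were already at -0.80 (mean log2 level against early anagen) at P29, late anagen, at -0.83 at P39 and at -1.08 at P41. Mitosis genes were at -0.69 at P29, -1.30 at P37, -1.11 at P39, -2.59 at P41 and -2.75 at P44. Ribosome biogenesis, cholesterol synthesis and pigment genes were at 0.04, -0.05 and 0.52 at P39, and at -0.84, -0.66 and -1.28 at P41. Keratin-associated genes were at 6.64 at P29, 6.28 at P39 and 5.31 at P41, above early anagen but past their peak, and at -0.40 at P44.

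**Figure D4:**
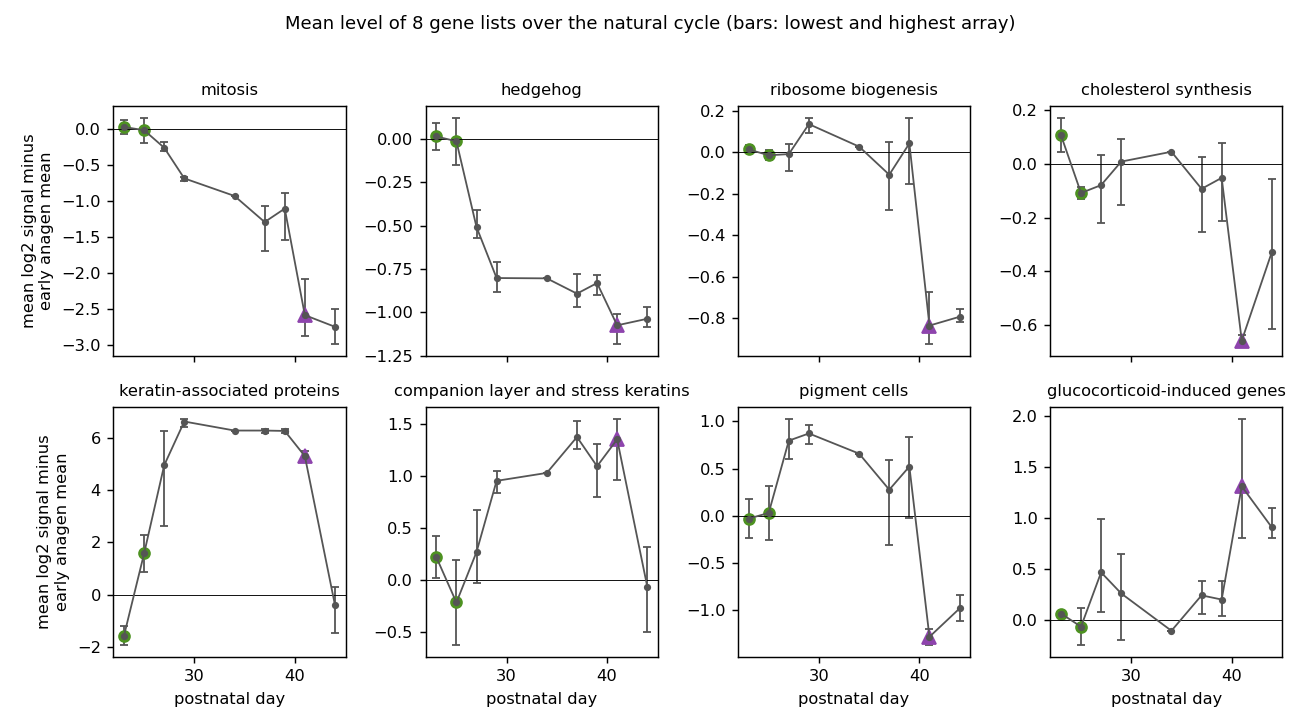
Mean log2 signal of 8 gene lists relative to early anagen (vertical axis) by postnatal day (horizontal axis), with bars from the lowest to the highest array of a day (a single array at P34), early anagen in green circles and P41 as a purple triangle. Mitosis lies lower at P37 than at P39 and drops at P41, hedgehog is low from P29, and ribosome biogenesis, cholesterol synthesis and pigment genes are not low before P41.

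A smaller set of genes was extreme at P41 itself. In 103 of the genes that were higher in mid catagen all 3 P41 arrays lay above the other 20 arrays of the natural cycle, and in 123 of those that were lower they lay below. Among all 12867 genes tested, called or not, the counts were 124 and 156, and the call itself rests on the P41 arrays. Ranked by the distance to the next highest day, the set was led by the predicted gene Gm9789, Mmp11, Pcdh8, Foxc2, Slc38a5, Pcp4, Krt16, Smoc1, Best2 and Thbs1, named here after their values were seen. Gm9789 had a day mean of 12054 at P41 and 1424 at P37, and all early anagen arrays were under the floor. Mmp11 had 2786 at P41 and 441 at P44, the next highest day. The protocadherin Pcdh8 had 525 at P41 and 95.4 at P27, and Foxc2, a forkhead factor of mesenchyme and vessels, 984 and 218 at P37. Krt16 (7391) and Thbs1 (6252) had early catagen, P37, as the next highest day (2011 and 2290). On the lower side the margins were small, the largest being that of Mc1r (34.7 at P41 and 68.3 at P44). The P41 mean of Mc1r lay close to the floor of 34.6, so its margin is a lower bound. The cholesterol genes Fdps (1724 and 2681 at P44), Sqle (1366 and 1853 at P44) and Hmgcs1 (6418 and 8438 at P44) also lay lowest at P41.

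Within early anagen, P25 against P23 gave 0 probe sets past the limma test, with 1120 at an unadjusted p under 0.05 and 119 calls when P25 replicate 2 was left out, where the lone P25 array was assumed to vary like the P23 arrays. The medians of keratin-associated and shaft keratin genes were nevertheless higher at P25, by 3.44 and 2.32 on the log2 scale, while those of mitosis (-0.05) and hedgehog genes (-0.01) were near 0.

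The cycle started by depilation offers a comparison with no array in common: 2 arrays at D17, early catagen by the design text, against 2 at D3, early anagen (D, days after the hair shafts were pulled from resting skin of older mice). Phase, age and injury all differ from the natural comparison. Sex differs too, since all D3 and D17 mice were labelled female and both sides of the natural comparison held both sexes. Here 8.84% of the genes were higher and 8.6% lower at D17, and the difference between the cycles passed the test for 32.9% of genes. Hair structure rose in both. Of 37 keratin-associated genes 37 were higher at D17, with a median of 8.23, beside 36 and 5.67 in the natural cycle, and the difference between the cycles passed for 11 of them. Division genes did not share the fall. The mean log2 level of mitosis genes against natural early anagen was already -0.68 at D3, and -0.82 at D17. Of 41 mitosis genes 0 were lower and 1 higher at D17, with a median of -0.18, and the difference between the cycles passed for 41. Mki67 differed by -0.02 ± 0.25 at D17 (adjusted p = 0.97) beside -3.14 ± 0.29 in the natural cycle, and the difference of -3.12 ± 0.39 between them passed the test (adjusted p = 7.74e-06).

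Growth signals and pigment genes went in opposite directions between P41 against natural early anagen and D17 against D3, comparisons that end in different phases of catagen. The D3 arrays did not start at the level of natural early anagen. Mean log2 levels against natural early anagen were -1.45 for hedgehog, -0.84 for WNT and -1.16 for pigment genes at D3. At D17 they were -0.71, -0.07 and 0.44, and at P44, telogen, -1.04, -0.60 and -0.98. In natural early catagen, the phase of D17, they were -0.89, -0.15 and 0.28 at P37 and -0.83, -0.20 and 0.52 at P39. How far the level at D3 makes up the opposite directions was not tested. Shh was higher at D17 than at D3 (2.94 ± 0.42, adjusted p = 0.00561) and lower at P41 than in natural early anagen, with a difference of -6.37 ± 0.57 (adjusted p = 1.43e-07). Lef1 (3.85 ± 0.35 at D17, difference -6.18 ± 0.47), Mycn (3.50 ± 0.32, difference -6.68 ± 0.40), Tyr (4.12 ± 0.66, difference -7.80 ± 0.79) and Dct (3.39 ± 0.65, difference -6.57 ± 0.77) behaved likewise, and 10 of 21 pigment genes were called higher at D17. Glucocorticoid-induced genes were opposite in the other sense, with 9 of 12 higher at P41 and 8 of 12 lower at D17, and skeletal muscle genes were lower at D17 for 17 of 28. Both lists started high at D3. Against natural early anagen, glucocorticoid-induced genes were at 1.49 at D3 and -0.15 at D17, and muscle genes at 1.29 and -0.44. How far the level at D3 makes up these falls was not tested. Of the genes at an extreme at P41, Thbs1 differed by 0.96 ± 0.64 at D17 (adjusted p = 0.337), Mmp11 by 0.14 ± 0.81 (adjusted p = 0.929) and Krt16 by -0.36 ± 0.88 (adjusted p = 0.813), and for each the difference between the cycles was 2.88 ± 0.64, 3.65 ± 1.01 and 4.90 ± 0.91 (adjusted p = 0.00181, 0.00928 and 0.000403). Thbs1, Mmp11 and Krt16 were singled out by their P41 arrays, which enter the difference between the cycles again. That choice favours small p values for this difference. Car6 was higher at D17 as well (6.28 ± 0.50, adjusted p = 0.000687), and Atp12a differed by 3.79 ± 1.63, which did not pass the test (adjusted p = 0.152).

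**Figure D5:**
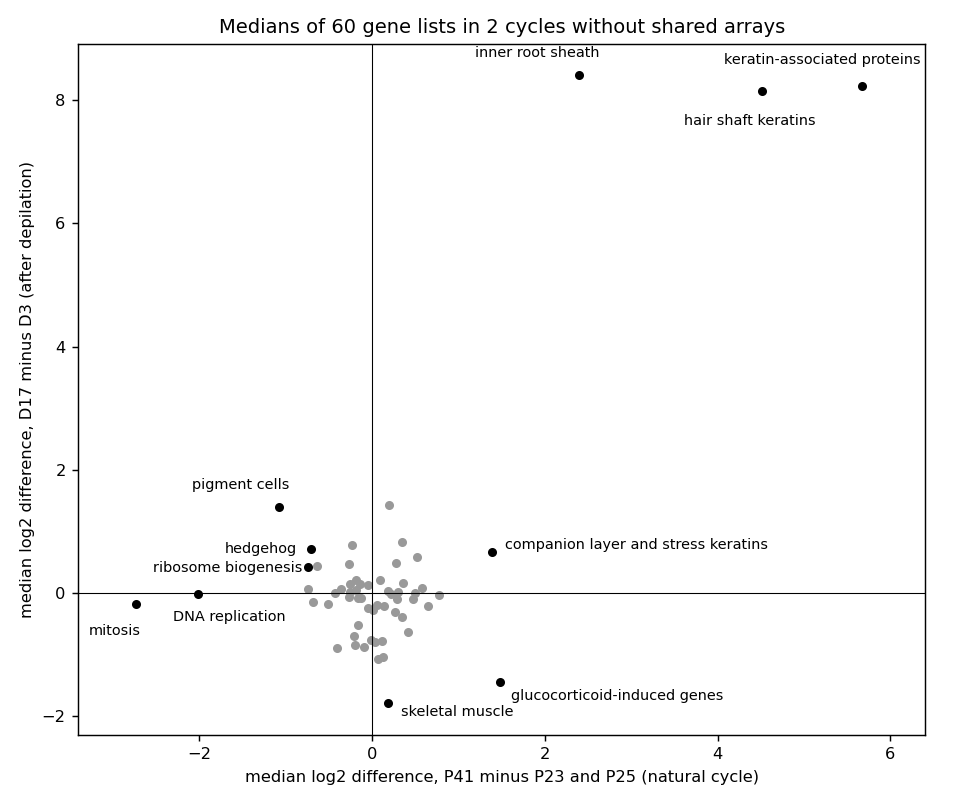
Median log2 difference of 60 gene lists in the natural cycle (horizontal axis, P41 minus P23 and P25) and after depilation (vertical axis, D17 minus D3), which share no array. Hair structure lists lie high on both axes, mitosis and DNA replication are low in the natural cycle alone, and glucocorticoid-induced genes lie on opposite sides of 0.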

How the data were processed

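Signal intensities of Affymetrix Mouse Genome 430 2.0 arrays, 1 mouse per array, were deposited by the authors after MAS 5.0 summarization and scaling, for 45037 probe sets on 33 arrays. Signals under 34.6, the 25th percentile, were raised to it and converted to log2, and 26988 probe sets were kept that exceeded the own median of 3 or more of the 33 arrays. limma (version 3.58.1, in R 4.3.3) was fitted to the 7 arrays without covariates, and Benjamini-Hochberg adjustment was over all kept probe sets with a threshold of 0.05. Each gene was represented by its single-symbol probe set with the highest mean log2 signal over the 33 arrays. Of all probe sets 34945 had 1 gene symbol, 932 several and 9160 none. Of 6085 genes with several probe sets 17 had probe sets called in both directions. A named call rests on the probe set used, and other probe sets of the gene did not always pass. Hspa9 had 1 of 4 probe sets called, Tgfa, Bcl2l1 and Vim 1 of 3, and Wnt5a, Igf1 and Timp3 2 of 4. Adamts4, Arntl, Ctsa, Cxcl1, Dgat2, Egr3, Gabarapl2, Gadd45b, Gli2, Kit, Mc1r, Msx1, Smad7 and Tyro3 had 1 of 2. The depilation arrays were fitted separately, and the difference between the cycles in a joint fit of the 33 arrays. The scripts were tested on simulated data. Named genes were the 12 largest rises and 12 largest falls without overlap, the 4 members of smallest p and those against the majority in each of 60 lists, a preset panel of follicle genes, and symbol families of at least 10 genes. Other named genes were chosen after their values were seen. The members, lists and rule were chosen with earlier results of these data known.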

Additional observations from a re-analysis of the deposited data

Results flagged for a closer look

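Among the 4 early anagen arrays, the gap of 1 array to the next, as a share of the whole log2 range, exceeded the Dixon critical value in 13 of the 229 named genes, and chance alone gives about 1 in 20. P23 replicate 1 stood apart for Col8a2 (172 beside 271 to 296, share 0.837) and Fbn2 (1193 beside 1336 to 1364, share 0.843). P23 replicate 2 stood apart for Alas2 (203 beside 176 to 180.2, share 0.8291), Saa3 (52.2 beside 68.8 to 72.7, share 0.8336) and Trpm6 (53.2 beside 86.8 to 94, share 0.86). P25 replicate 1 stood apart for Best2 (47.2 beside the other 3 arrays, all raised to the floor of 34.6, so that the share is 1 by construction), Btg2 (190.1 beside 502 to 602, share 0.8417), Ctsa (3587 beside 2512 to 2638, share 0.8632), Igfbp3 (3371 beside 2179 to 2304, share 0.8729), Sox18 (1269 beside 1747 to 1861, share 0.8347) and Tgfb1 (634 beside 976 to 1012, share 0.9233). P25 replicate 2 stood apart for Kif11 (1231 beside 827 to 831, share 0.9864) and Padi1 (219 beside 90.4 to 98.2, share 0.9066). 

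Of the named genes 29 passed the test in opposite directions in the natural cycle (P41 against P23 and P25) and after depilation (D17 against D3), and the difference between the cycles passed as well. It is given as the log2 difference of the natural cycle minus that after depilation. Lower in the natural comparison and higher after depilation were Tyr (-7.80), Mycn (-6.68), Pmel (-6.66), Dct (-6.57), Shh (-6.37), Lef1 (-6.18), Mfap4 (-5.12), Hhip (-4.98), Col11a1 (-4.49), Wif1 (-4.33), Ptch1 (-4.16), Wnt5a (-3.39), Msx1 (-3.32), Egr3 (-2.57), Ccnd2 (-2.55), Fdps (-2.50), Lhx2 (-2.33), Gli2 (-2.32), Kit (-2.14) and Cdk4 (-2.14). Higher in the natural comparison and lower after depilation were Zbtb16 (5.13), Lcn2 (5.07), Tsc22d3 (4.44), Mb (3.44), Per1 (3.37), Angptl4 (2.87), Cidec (2.59), Col17a1 (2.00) and Nfkbia (1.20). The phases compared, mid and early catagen, and the sexes of the mice differ between the cycles too.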

How the results depend on the processing

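The arrays are few, low signals near the floor of 34.6 bound the changes, and age, phase and mouse cannot be separated. The 6617 probe sets called (2907 higher, 3710 lower) became 4333 (2364 lower) with P23 alone as early anagen, 2512 (1245 higher, 1267 lower) with P25 alone, 4104 (1640 and 2464) when 1 probe set per gene was counted, which tests fewer probe sets, and 4121 to 6832 (1754 to 3019 higher, 2343 to 3813 lower) when any 1 array was left out. With the replicate number as a block (replicate block) they were 3646 (1628 and 2018), and 13 keratin-associated and 4 shaft keratin genes rose. Whether the same numbers pair the mice was not settled. Deviations of same-numbered arrays from their day means correlated with r from -0.0492 to 0.125, over 0.1 in 3 of 6 pairs. For arrays of different numbers r was from -0.125 to 0.124, over 0.1 in 1 of 10 pairs. On days with 2 arrays the deviations mirror each other, so the pairs are not separate and the check cannot decide. Median centring gave 38.1% of calls higher beside 43.9%. The methods' t-test gave 5534 at a raw p under 0.01 and 5621 after adjustment. P25 against P23 gave 24 without a filter, 3 with median centring, 5 in the joint fit and 0 to 119 with an array left out, where the lone array of a day was assumed to vary like the other day, and D17 against D3 gave 6708 in the joint fit and 1149 to 3083 with an array left out. The alternatives added after seeing the data, the males alone (6768) and a variance trend (7154), stayed within 1.5 times. Of the 229 named genes 39 lost their call without at least 1 array, of which 4 did so for 6 of the 7 arrays and 12 for 5, as given beside each. The cause of these shifts was not tested.

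Signs turned for 9 named genes, none past the test. The log2 difference of Gata3 was -0.002 with quantile normalization, -0.0278 with median centring, -0.021 with the block and -0.03 to 0.1031 with an array left out. Krt28 gave -0.0186 with median centring, -0.0642 with the block, -0.0495 with P23 alone, -0.4974 in males and -0.2678 to 0.3555 with an array left out. Adipoq gave -0.0482 with quantile normalization, -0.0108 with median centring and -0.063 to 0.1637 with an array left out. Cd34 gave 0.1647 with P23 alone, 0.2108 in males and -0.1283 to 0.105 with an array left out. Tgfb1 gave -0.0489 with P23 alone, -0.2057 in males and -0.0426 to 0.3356 with an array left out, and Tgfb2 -5e-04 with P23 alone and -0.0509 to 0.4283. Orc1 gave 0.1367 with P23 alone and 0.0101 in males. Mybl2 gave 0.0132 with P25 alone and -0.2115 to 0.1015 with an array left out, and Krt35 -0.4716 to 0.1171.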
